A study of Homo sapiens with 5 samples.

Results

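The 10 genes described here encode the cadherins and catenins of the adherens junction together with markers that separate epithelial from mesenchymal cells. They are CDH1, CDH3, CTNNA1, CTNNB1, CTNND1, EPCAM, VIM, SNAI2, ZEB1 and CDH2. They were matched by gene symbol, and all 10 were among the 27933 symbols of the deposited table. The cells were HaCaT, a spontaneously immortalised line of human skin keratinocytes, grown in DMEM with fetal bovine serum. Total RNA was sequenced from 3 libraries labelled AHNAK knockdown and 2 libraries labelled control. Sample descriptions read si for knockdown and NC for control, without spelling out either. The labels name no agent in full and give no dose or time for the knockdown, and the series' design text speaks of a knockout instead. They do not say whether replicates were separate cultures, so the p-values measure the spread between these libraries, which may be technical. All the libraries come from 1 cell line.

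Adherens junctions hold neighbouring epithelial cells together. Classical cadherins span the membrane and bind the same kind of cadherin on the next cell in the presence of calcium, while their tails bind p120-catenin and beta-catenin, and alpha-catenin links beta-catenin to actin. Basal keratinocytes carry E-cadherin and P-cadherin. In an epithelial-mesenchymal transition, repressors such as those encoded by SNAI2 and ZEB1 lower E-cadherin, and N-cadherin and vimentin appear. The series title places AHNAK, which encodes a very large scaffold protein, downstream of oncostatin M receptor signalling and asks about keratinocyte proliferation and differentiation.

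Values are FPKM, fragments scaled by transcript length and by the mapped fragments of a library, and so can be compared between genes as levels per length. Read totals are not given, so the depth behind each value is unknown. Between 12087 and 12311 genes per library reached 1 FPKM. AHNAK stood at 113.9, 69.6 and 115.3 FPKM in knockdown replicates 1, 2 and 3, against 204.8 and 242.0 FPKM in control replicates 1 and 2, so every knockdown value lay below both controls. Its log2 difference was -1.19 (SE 0.24) and did not pass the threshold used below (limma adjusted p = 0.372), at -0.83 within set A and -1.79 within set B, which are explained below. All 10 keratinocyte markers averaged at least 1 FPKM, and their sum was 4384 to 6052 FPKM in knockdown and 6409 to 7907 FPKM in control. PERP alone had a positive log2 difference, at 0.51. All the others were lower in knockdown by different amounts, at -1.01 for KRT6A, -0.70 for KRT14 and -0.61 for DSP. LAMB3 was at -0.31, ITGB4 at -0.28, TP63 at -0.27, KRT5 at -0.23, SFN at -0.22 and DSG3 at -0.13. The 4 keratins of simple epithelium summed to 2751 to 3227 FPKM in knockdown and 2930 to 3272 FPKM in control, which overlap. The part of the keratinocyte gap in the results was not tested, and in bulk RNA fewer cells of a type and less RNA per cell cannot be told apart. Low values of knockdown replicates 1 and 3 and control replicate 1 shared steps (set A), as did those of knockdown replicate 2 and control replicate 2 (set B). No label describes these sets. The deviations of knockdown replicates 1 and 3 from the mean of all libraries ran with GC content in opposite directions (Spearman's rho of 0.605 and -0.548 across 11784 genes, which are not independent replicates).

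The levels of the 10 genes spanned a wide range. P-cadherin (CDH3) was highest at 201 ± 24.7 FPKM (SD, n = 5), above 98.0% of the genes tested. It was followed by E-cadherin (CDH1) at 107 ± 17.1 FPKM, EPCAM at 88.0 ± 10.6 FPKM, alpha-catenin (CTNNA1) at 72.9 ± 5.09 FPKM and beta-catenin (CTNNB1) at 58.1 ± 3.22 FPKM. The repressor gene SNAI2 and N-cadherin (CDH2) came next at 21.3 ± 3.84 and 19.1 ± 1.84 FPKM. CTNND1, VIM and ZEB1 formed the low end at 2.05 ± 0.211, 0.617 ± 0.178 and 0.0496 ± 0.0221 FPKM. Over the 5 libraries the ranges of CDH1 and EPCAM, of EPCAM and CTNNA1, and of SNAI2 and CDH2 overlapped, while those of all the other neighbours in this order did not. In these cells, then, epithelial cadherins, SNAI2 and CDH2 were measured together, with VIM and ZEB1 near 0.

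**Figure D1:**
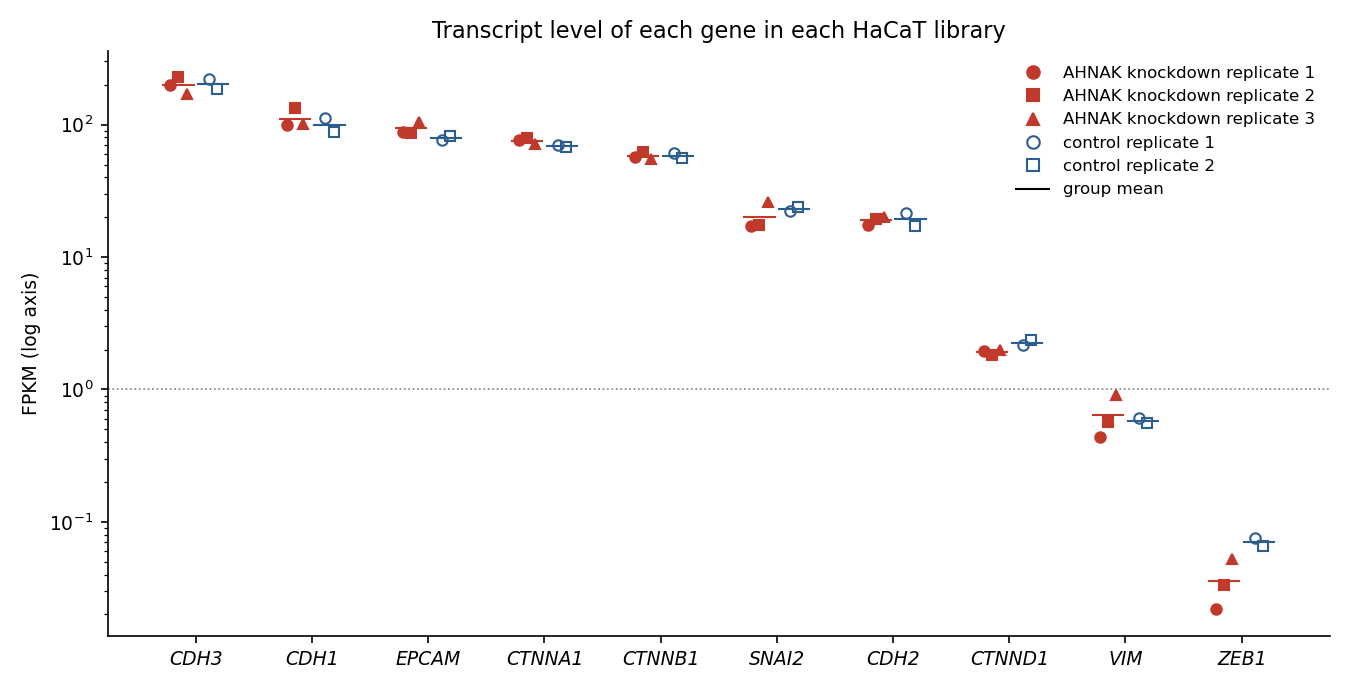
FPKM of each of the 10 genes (log axis) in the 3 AHNAK knockdown libraries (filled) and the 2 control libraries (open), ordered by mean level, with a line at each group mean and a dotted line at 1 FPKM. CDH3 lies highest at a mean of 201 FPKM and ZEB1 lowest at 0.0496 FPKM, and for 6 of the 10 genes the groups overlap.

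None of the 10 genes passed the test between AHNAK knockdown and control. For the comparison, log2(FPKM + 0.5) was fitted with limma over the 12196 genes that averaged at least 1 FPKM, with Benjamini-Hochberg adjustment over all of them and a threshold of 0.05 on the adjusted p. CDH3, CDH1, EPCAM, CTNNA1, CTNNB1, SNAI2, CDH2 and CTNND1 passed this filter, which uses all the libraries, and VIM and ZEB1 did not. Of these 8 genes 0 passed the threshold and 0 had an unadjusted p under 0.05. Among all tested genes limma called 0 of 12196, which is 0%, and 1427 genes (11.7%) had an unadjusted p under 0.05. The smallest unadjusted p of the 8 was 0.153 and the adjusted p ran from 0.562 to 0.989. Positive log2 differences were found in 3 of the 8, against 51.3% of all tested genes, and negative ones in 5, against 48.7%. Their median log2 difference was -0.01, beside 0.007 over all tested genes, and their median size without regard to sign was 0.14, beside 0.17. Over the 8 genes the 95% confidence intervals reached no lower than 0.622-fold and no higher than 1.51-fold of control.

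E-cadherin, the main cadherin of epithelia, did not differ between the groups beyond the spread between libraries. CDH1 (ENSG00000039068.18, chromosome 16, 68737225 to 68835548, plus strand, GRCh38) was at 99.1, 133 and 101 FPKM in knockdown replicates 1, 2 and 3, against 112 and 88.0 FPKM in control replicates 1 and 2. Knockdown replicate 2 was the highest library and control replicate 2 the lowest, and the groups overlapped. The log2 difference was 0.15 (SE 0.19, 95% interval -0.30 to 0.59, limma adjusted p = 0.767). It was -0.16 within set A and 0.59 within set B, and without control replicate 2 it was -0.03, so its sign rests on that library.

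P-cadherin, which in epidermis marks the basal layer, did not pass either and stood at a higher level. CDH3 (ENSG00000062038.13) lies on the same strand of chromosome 16, at 68636189 to 68722616, and ends 14608 bases before CDH1 begins. It was at 200.1, 228 and 169 FPKM in knockdown replicates 1, 2 and 3, against 222 and 185 FPKM in control replicates 1 and 2. The lowest and the highest value were both from knockdown, and the controls fell between them. Knockdown minus control came to -0.04 on the log2 scale (SE 0.17, 95% interval -0.45 to 0.37, limma adjusted p = 0.949), with -0.27 within set A and 0.30 within set B. Without control replicate 1 it was 0.10 and without knockdown replicate 3 it was 0.07. CDH1 and CDH3 shared their highest knockdown library, replicate 2, and in both genes control replicate 1 lay above control replicate 2. CTNNA1 and CTNNB1, on other chromosomes, had the same order. Over all tested genes, deviations of knockdown replicate 2 and control replicate 1 from their group means correlated at 0.578, so this order is not particular to the neighbouring cadherins.

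N-cadherin, the cadherin of neural and mesenchymal cells, was present in every library. CDH2 (ENSG00000170558.8, chromosome 18, 27950966 to 28177446, minus strand) was at 17.5, 19.2 and 20.0 FPKM in knockdown replicates 1, 2 and 3, against 21.6 and 17.1 FPKM in control replicates 1 and 2. All knockdown values lay between the 2 controls. The log2 difference was -0.02 (SE 0.15, 95% interval -0.38 to 0.33, limma adjusted p = 0.965), at -0.20 within set A and 0.17 within set B. Without control replicate 1 it was 0.14, without control replicate 2 it was -0.19 and without knockdown replicate 1 it was 0.03.

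CDH3 made up most of the classical cadherin transcripts in every library. Together CDH1, CDH2 and CDH3 came to 317, 380 and 290 FPKM in knockdown replicates 1, 2 and 3, against 356 and 290 FPKM in control replicates 1 and 2. The CDH3 share of that sum was 60.5 ± 2.49% in knockdown (SD, n = 3) and 63.1 ± 0.889% in control (SD, n = 2). The share of CDH1 was 33.7 ± 2.09% in knockdown and 30.9 ± 0.772% in control, and that of CDH2 was 5.82 ± 0.952% and 5.97 ± 0.117%. A ratio of genes within a library does not depend on how that library was scaled. It can still carry a library's relation to GC content, and the longest transcripts of CDH1 and CDH3 have 48.6% and 54.1% GC. The part of GC content in the ratios was not tested. CDH1 over CDH3 was 0.495, 0.585 and 0.597 in knockdown replicates 1, 2 and 3, against 0.504 and 0.477 in control replicates 1 and 2. Knockdown replicate 1 fell between the controls and the other 2 knockdown libraries lay above them. The log2 ratio differed by 0.19 (two-sided exact permutation test, p = 0.3, adjusted over the 4 ratios computed, p = 0.6). With 3 against 2 libraries there are 10 splits, and this test cannot go below 0.1.

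**Figure D2:**
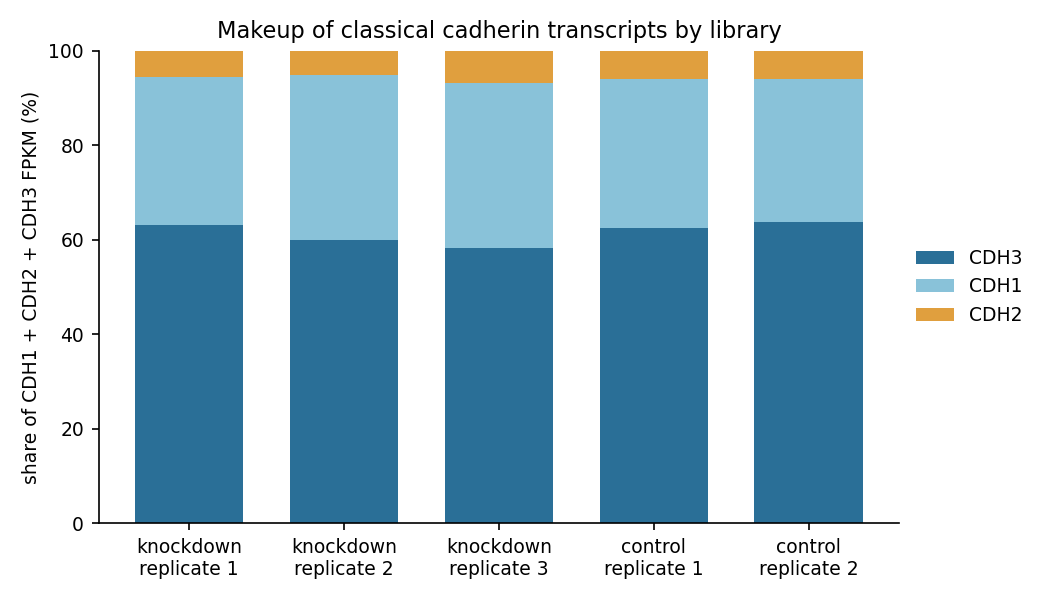
Share of each classical cadherin in the summed FPKM of CDH1, CDH2 and CDH3 (percent, from 0), 1 bar per library, with AHNAK knockdown replicates at the left and control replicates at the right. CDH3 takes 58.3% to 63.7% of the sum and CDH2 5.06% to 6.89%.

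Alpha-catenin was slightly higher in every knockdown library, by less than the test could call. CTNNA1 (ENSG00000044115.20, chromosome 5, 138610967 to 138935034, plus strand) was at 76.5, 79.8 and 71.1 FPKM in knockdown replicates 1, 2 and 3, against 69.9 and 67.4 FPKM in control replicates 1 and 2. The groups did not overlap, with knockdown replicate 3 closest to the controls. The means were 75.8 ± 4.41 FPKM in knockdown (SD, n = 3) and 68.6 ± 1.80 FPKM in control (SD, n = 2). This gave a log2 difference of 0.14 (SE 0.12, 95% interval -0.16 to 0.44, limma adjusted p = 0.666), at 0.08 within set A and 0.24 within set B. CTNNA1 was among the steadier genes, since 90.9% of tested genes had a larger spread within groups.

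Beta-catenin, which joins cadherins to alpha-catenin and also acts in the nucleus in Wnt signalling, had closely matched group means. CTNNB1 (ENSG00000168036.17, chromosome 3, 41194741 to 41260096, plus strand) was at 56.8, 62.1 and 55.2 FPKM in knockdown replicates 1, 2 and 3, against 61.0 and 55.6 FPKM in control replicates 1 and 2. The groups overlapped, with knockdown replicate 2 highest and knockdown replicate 3 lowest. The log2 difference was -0.01 (SE 0.13, 95% interval -0.31 to 0.30, limma adjusted p = 0.989), and 97.8% of tested genes differed by more. Within set A it was -0.12 and within set B 0.16, and it ran from -0.07 without control replicate 2 to 0.06 without control replicate 1. CTNNB1 overlaps ULK4 on the other strand, and reads of overlapping genes cannot be told apart where strand was not used. ULK4 was at 0.766 to 0.798 FPKM in knockdown and 1.04 and 1.20 FPKM in control. The messenger RNA level says nothing of how much beta-catenin protein is stabilised.

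CTNND1 encodes p120-catenin, which binds the part of the cadherin tail next to the membrane and keeps cadherins at the cell surface. CTNND1 (ENSG00000198561.13, chromosome 11, 57753243 to 57819546, plus strand) was at 1.94, 1.81 and 1.98 FPKM in knockdown replicates 1, 2 and 3, against 2.16 and 2.35 FPKM in control replicates 1 and 2. Every knockdown library lay below both controls. The means were 1.91 ± 0.0905 FPKM in knockdown (SD, n = 3) and 2.26 ± 0.135 FPKM in control (SD, n = 2). On the log2 scale the difference was -0.19 (SE 0.14, 95% interval -0.53 to 0.14, limma adjusted p = 0.611), at -0.11 within set A and -0.30 within set B. Its level exceeded only 11.2% of tested genes, far under that of its partner catenins in all 5 libraries. GENCODE release 29 places the readthrough genes TMX2-CTNND1 and AP001931.1 over CTNND1 on the same strand. TMX2-CTNND1 was listed at 0 in 4 libraries and at 0.01 FPKM in control replicate 1, and how reads were divided among overlapping models was not tested.

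Of the 4 ratios computed, only CTNNA1 over CTNNB1 had groups that did not overlap. No ratio with CTNND1 was among them, and the share of such ratios over other gene pairs was not computed. CTNNA1 over CTNNB1 was 1.35, 1.29 and 1.29 in knockdown replicates 1, 2 and 3, against 1.15 and 1.21 in control replicates 1 and 2. All knockdown libraries lay above both controls. The log2 ratio differed by 0.15 (two-sided exact permutation test, p = 0.1, the smallest this design allows, and p = 0.4 adjusted over the 4 ratios), which does not pass. CTNNB1 over the sum of CDH1 and CDH3 was 0.190, 0.172 and 0.204 in knockdown, against 0.182 and 0.204 in control. Its log2 difference was -0.03 (two-sided exact permutation test, p = 0.9, adjusted over the 4 ratios, p = 1.0), and the sign turned without knockdown replicate 2 (0.03) or control replicate 2 (0.05).

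**Figure D3:**
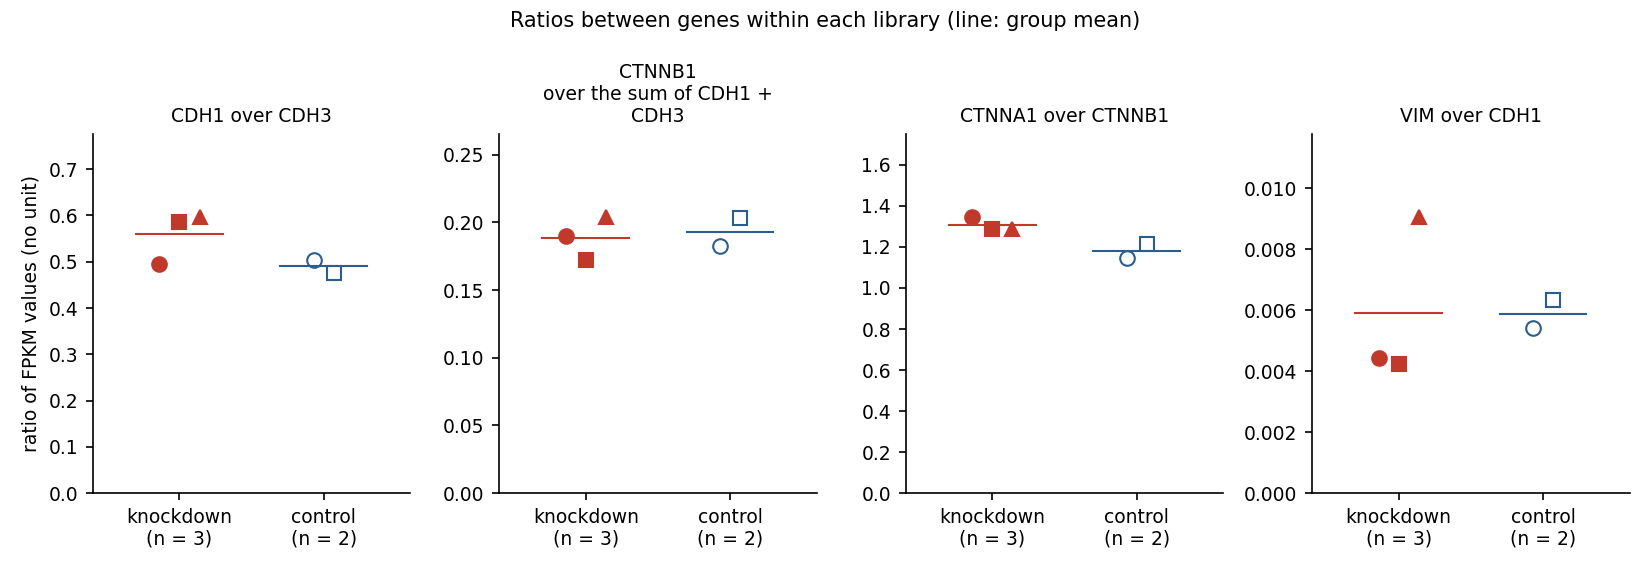
Ratios of FPKM values between genes within each library, for the 3 AHNAK knockdown libraries (filled) and the 2 control libraries (open), each axis starting at 0, with a line at the group mean. CTNNA1 over CTNNB1 lies at 1.29 to 1.35 in knockdown and 1.15 to 1.21 in control, and the other 3 ratios overlap between the groups.

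EPCAM encodes a cell adhesion protein of simple and proliferating epithelia that is cut by proteases to release a signalling fragment. EPCAM (ENSG00000119888.10, chromosome 2, 47345158 to 47387601, plus strand) was at 88.7, 86.9 and 105 FPKM in knockdown replicates 1, 2 and 3, against 76.7 and 82.6 FPKM in control replicates 1 and 2. The groups did not overlap, and knockdown replicate 3 stood above the rest. The means were 93.6 ± 10.0 FPKM in knockdown (SD, n = 3) and 79.7 ± 4.15 FPKM in control (SD, n = 2). Its log2 difference was 0.23 (SE 0.14, 95% interval -0.11 to 0.56, limma adjusted p = 0.562), the largest of the 8 tested genes in size. It was 0.33 within set A and 0.07 within set B, 0.14 without knockdown replicate 3, and 0.13 with GC content and length regressed out. A difference of at least this size was seen in 37.4% of tested genes.

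Of the 8 tested genes, EPCAM, CTNNA1 and CTNND1 had groups that did not overlap, against 32.0% of all tested genes. Above both controls were 2 of the 8, beside 16.2% of tested genes, and below both was 1, beside 15.8%. The differences within sets A and B had the same sign in 4 of the 8 genes (EPCAM, CTNNA1, SNAI2 and CTNND1), against 55.7% of tested genes. In the other 4, the 3 cadherins and CTNNB1, set A was negative and set B positive, and set B has 1 library per group. The share of all tested genes with these signs was not computed. Over all tested genes, the deviations of the set B libraries from their group means correlated at -0.578.

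**Figure D4:**
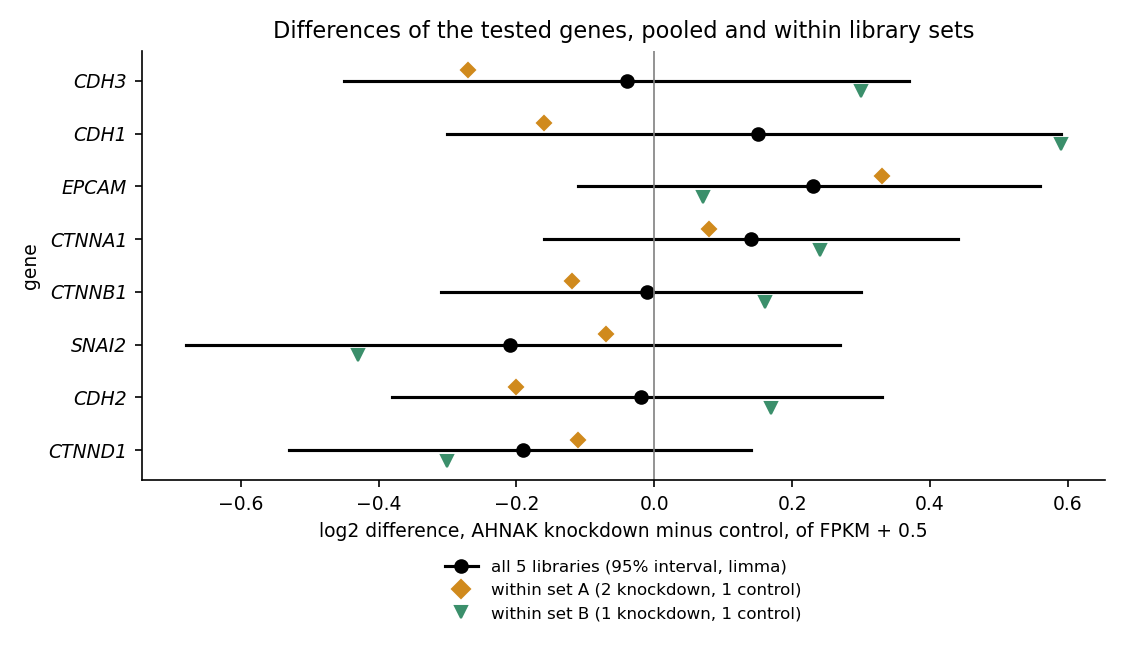
Log2 difference, AHNAK knockdown minus control, of FPKM + 0.5 for the 8 tested genes, with the 95% interval from limma over all 5 libraries (black) and the differences within set A (diamonds) and set B (triangles). Every interval spans 0, and for CDH3, CDH1, CTNNB1 and CDH2 the sets lie on opposite sides of 0.

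Among the transcription factors of the 10 genes, SNAI2 was the expressed one. SNAI2 (ENSG00000019549.11, chromosome 8, 48917604 to 48921740, minus strand) encodes SLUG, a zinc finger repressor of CDH1 that is also active in basal keratinocytes. It was at 17.2, 17.4 and 25.9 FPKM in knockdown replicates 1, 2 and 3, against 22.2 and 23.7 FPKM in control replicates 1 and 2. Of the knockdown libraries 2 lay below both controls and replicate 3 above both. The log2 difference was -0.21 (SE 0.20, 95% interval -0.68 to 0.27, limma adjusted p = 0.697), and without knockdown replicate 3 it was -0.39 (adjusted p = 0.304). Within set A it was -0.07 and within set B -0.43. Knockdown replicate 3 is the library with the strongest negative relation to GC content, and SNAI2, with 41.4% GC in its longest transcript, has the lowest GC content of the 8 tested genes. The part of GC content in that value was not tested for this gene alone, and with all libraries corrected for GC content and length the difference was -0.28 (adjusted p = 0.278).

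ZEB1, a repressor that marks full mesenchymal conversion, was near 0 throughout. ZEB1 (ENSG00000148516.21, chromosome 10, 31318495 to 31529814, plus strand) was at 0.0219, 0.0332 and 0.0520 FPKM in knockdown replicates 1, 2 and 3, against 0.0752 and 0.0656 FPKM in control replicates 1 and 2. The knockdown libraries were below both controls, at levels that a few reads could make. With no filter on low values its difference was -0.09 (SE 0.05, limma adjusted p = 0.566) on the log2(FPKM + 0.5) scale, which understates changes this low. The row of its antisense gene ZEB1-AS1 was higher than ZEB1 in every library, at 0.519 to 1.05 FPKM.

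Vimentin, the intermediate filament of mesenchymal cells, was likewise below 1 FPKM in each library. VIM (ENSG00000026025.15, chromosome 10, 17228259 to 17237593, plus strand) was at 0.440, 0.565 and 0.915 FPKM in knockdown replicates 1, 2 and 3, against 0.607 and 0.558 FPKM in control replicates 1 and 2. Knockdown replicate 3 was highest and replicate 1 lowest, and the controls lay between them. With no filter the difference was 0.05 (SE 0.20, 95% interval -0.44 to 0.55, limma adjusted p = 0.931). VIM-AS1, on the other strand, stood at 0.147, 0.374 and 0.970 FPKM in knockdown replicates 1, 2 and 3, against 0.170 and 0.312 FPKM in control replicates 1 and 2, so VIM and VIM-AS1 were both highest in knockdown replicate 3. Whether counting used strand is not given in the sources used here, and reads of the pair cannot then be told apart. VIM over CDH1 was 0.00444, 0.00424 and 0.00906 in knockdown, against 0.00542 and 0.00634 in control, a log2 difference of -0.08 (two-sided exact permutation test, p = 1.0, adjusted over the 4 ratios, p = 1.0). Without knockdown replicate 1 that difference was 0.08, without knockdown replicate 2 it was 0.11 and without control replicate 2 it was 0.03.

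SLUG and ZEB1 bind the 6-base E-box CACCTG, which reads CAGGTG on the other strand. RefSeq promoter windows (GRCh38.p14) matched 5 of the 10 genes (CTNNA1, CTNNB1, VIM, ZEB1 and CDH2) with 15 windows in all, and the 250 bases before each start site were searched on both strands. The motif was found in 2 of these 15 windows, both of ZEB1, and in 17.5% of the 35116 windows of all genes. The 3 ZEB1 copies are shown because no other member window held the motif, with the motif in capitals and at most 10 bases on each side. The window of the first copy overlaps 4 annotated exon entries and that of the other 2 copies overlaps 14. Whether the motif bears on the ZEB1 level was not tested.
ZEB1 chr10:31318350-31318375, plus strand, motif starting 57 bases before a start site: gaggtgacagCAGGTGagggccgggt
ZEB1 chr10:31318966-31318989, plus strand, motif starting 242 bases before another start site: ccccaccaCACCTGaggaaaactt
ZEB1 chr10:31319121-31319146, plus strand, motif starting 85 bases before that same start site: tgtcgtaaacCAGGTGcggtggggag
The VIM window is shown because VIM was the low member with 1 start site in the table and no annotated exon in the window. It holds 8 CpG pairs, against a median of 11 over all windows, and the motif is not among these 250 letters, so nothing is in capitals.
VIM chr10:17227991-17228240, plus strand: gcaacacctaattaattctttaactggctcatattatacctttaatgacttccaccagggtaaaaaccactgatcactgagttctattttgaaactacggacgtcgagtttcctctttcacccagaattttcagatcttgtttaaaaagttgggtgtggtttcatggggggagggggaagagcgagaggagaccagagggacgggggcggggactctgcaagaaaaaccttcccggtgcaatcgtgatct
The windows of the expressed genes differed among themselves, with 34 CpG pairs for CTNNB1, 33, 39, 3 and 8 for CTNNA1, and 17 and 4 for the 2 windows of CDH2. Those of ZEB1 held 7 to 27, so the counts did not follow the levels. A match is a description of letters and not of binding.

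Beyond the 10 genes, 8 lists of related genes were read in the same fit, and 0 of their members passed. For each list the 2 tested members of smallest p are named, and their limma adjusted p ran from 0.372 to 0.431. Other components of the adherens junction had 15 of 21 tested members lower and 6 higher in knockdown, with a median log2 difference of -0.18 (-0.16 within set A, -0.10 within set B). That median was -0.08 without knockdown replicate 3 and -0.09 with GC content and length regressed out. ARVCF, a relative of p120-catenin, was at 3.40 ± 0.501 FPKM in knockdown (SD, n = 3) and 5.61 ± 0.372 FPKM in control (SD, n = 2), a log2 difference of -0.66 (-0.73 within set A, -0.57 within set B). VCL, or vinculin, which binds alpha-catenin under tension, was at 52.0 ± 3.60 FPKM in knockdown and 69.3 ± 7.27 FPKM in control, a log2 difference of -0.41 (-0.54 within set A, -0.26 within set B). Among other cadherins 8 of 10 were lower and 2 higher, with a median of -0.22 (-0.25 within set A, -0.02 within set B), which was -0.01 without knockdown replicate 3. CDH4, among the 8 lower, was at 1.17, 0.900 and 0.395 FPKM in knockdown and 1.56 and 1.14 FPKM in control. It reached the filter only through the controls, so its part in that count and median supports nothing. The named genes of smallest p were CELSR1, a cadherin of planar polarity, at -0.49 (-0.30 within set A, -0.73 within set B), and the protocadherin PCDH7 at 0.68. PCDH7 differed by 0.12 within set A and 1.48 within set B, and by 0.36 without control replicate 2 and 0.44 without knockdown replicate 2. The genes that process cadherins or EPCAM were split, with 11 higher and 11 lower of 22, with a median of -0.01 (-0.10 within set A, -0.01 within set B). PSEN2, a catalytic presenilin of gamma-secretase, was at 2.15 ± 0.557 FPKM in knockdown and 5.13 ± 1.40 FPKM in control, a log2 difference of -1.09 (-1.45 within set A, -0.62 within set B). CBLL1, or Hakai, a ubiquitin ligase that marks E-cadherin for removal, differed by -0.41 (-0.44 within set A, -0.40 within set B).

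Of 14 other transcription factors of the epithelial-mesenchymal transition 7 were tested, 5 higher and 2 lower in knockdown, with a median log2 difference of 0.32 (0.16 within set A, 0.44 within set B). That median was 0.15 without knockdown replicate 1 or control replicate 2, and 0.53 without knockdown replicate 3. FOXC1 was at 12.8 ± 1.70 FPKM in knockdown (SD, n = 3) and 8.14 ± 0.209 FPKM in control (SD, n = 2), a log2 difference of 0.62 (0.60 within set A, 0.68 within set B). SOX9 was at 9.93 ± 1.92 FPKM in knockdown and 6.04 ± 1.43 FPKM in control, a log2 difference of 0.67 (0.31 within set A, 1.18 within set B). SNAI1, TWIST1 and ZEB2, named after their values were seen, stayed at or below 0.180 FPKM in every library. TWIST2, on the same list, was at 2.68 to 4.78 FPKM over the 5 libraries (log2 difference -0.02). TCF3 was at 22.1 to 37.3 FPKM, TCF4 at 1.20 to 1.65 FPKM, KLF8 at 1.11 to 1.57 FPKM and SOX4 at 3.49 to 11.9 FPKM. The epithelial list had 15 of 27 tested members higher and 12 lower, with a median of 0.04 (-0.01 within set A, 0.01 within set B). ELF3, an epithelial ETS factor, was at 144 ± 24.7 FPKM in knockdown and 89.4 ± 3.51 FPKM in control (log2 difference 0.67, 0.50 within set A, 0.98 within set B). GRHL3, a factor of epidermal barrier formation, differed by -0.48 (-0.60 within set A, -0.30 within set B). The mesenchymal list had 14 of 23 tested members lower and 9 higher, with a median of -0.21 (-0.21 within set A, -0.06 within set B), which was -0.08 without control replicate 1. ITGA5, the alpha chain of the fibronectin receptor, was at 15.0 ± 1.71 FPKM in knockdown and 24.9 ± 3.27 FPKM in control (log2 difference -0.71, -0.87 within set A, -0.51 within set B). Fibronectin itself, FN1, was at 3.90 ± 1.25 FPKM in knockdown and 7.56 ± 2.15 FPKM in control (log2 difference -0.89, -1.29 within set A, -0.37 within set B). Of 8 fibroblast markers 3 averaged at least 1 FPKM. The sum of all 8 was 6.12 to 10.2 FPKM in knockdown and 3.30 to 5.02 FPKM in control, without overlap. DCN was at 1.83 to 5.25 FPKM in knockdown and 1.37 and 0 FPKM in control, and COL3A1 at 1.67 to 2.87 FPKM in knockdown and 1.51 and 0.829 FPKM in control. COL1A1 lay the other way, at 1.28 to 1.78 FPKM in knockdown and 1.94 and 2.47 FPKM in control. DCN averaged at least 1 FPKM only through the knockdown libraries. Its place among the 3 and its part in the sum therefore support nothing. PDGFRA and THY1 were each listed at 0 in both controls and 2 of the 3 knockdown libraries, and COL1A2 in both controls and knockdown replicate 2. Of 6 melanocyte markers 1 averaged at least 1 FPKM, and TYR was listed at 0 in all 5 libraries. Their part in these values was not tested.

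Genes that restrain or read out beta-catenin were also examined. Of 18 tested members of its degradation complex and nuclear partners, 12 were lower and 6 higher, with a median of -0.08 (-0.11 within set A, 0.02 within set B). It was -0.01 without control replicate 1, -0.12 without control replicate 2 and -0.04 without knockdown replicate 3. APC, the scaffold of the complex, differed by -0.37 (-0.44 within set A, -0.28 within set B) and PYGO2, a nuclear co-activator, by 0.31 (0.21 within set A, 0.47 within set B). Of 14 direct targets 7 were tested, 6 lower and 1 higher, with a median log2 difference of -0.30 (-0.70 within set A, -0.30 within set B). It was -0.19 without control replicate 1, -0.45 without knockdown replicate 2 and -0.63 without control replicate 2. CCND1, or cyclin D1, which many other pathways also drive, was at 121 ± 13.5 FPKM in knockdown (SD, n = 3) and 204 ± 7.49 FPKM in control (SD, n = 2), a log2 difference of -0.76 (-0.72 within set A, -0.89 within set B). SP5 was at 0.788 ± 0.157 FPKM in knockdown and 1.44 ± 0.348 FPKM in control, a log2 difference of -0.59 (-0.81 within set A, -0.33 within set B). SP5 passed the filter only through the controls, its knockdown values all being under 1 FPKM. Its difference and its place among the 6 lower targets therefore support nothing. The same holds for its part in the median of the targets and in their share without overlap given below.

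Groups that did not overlap made up a share on either side of the 32.0% of all tested genes. The share was 57.1% (4 of 7) for beta-catenin targets, with SP5 counted, which passed the filter only through the controls. The share was 50.0% for processing genes, 47.8% for mesenchymal genes, 38.1% for other adherens junction components and 37.0% for epithelial genes. It was 28.6% for other transcription factors, 22.2% for beta-catenin partners and 20.0% for other cadherins.

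**Figure D5:**
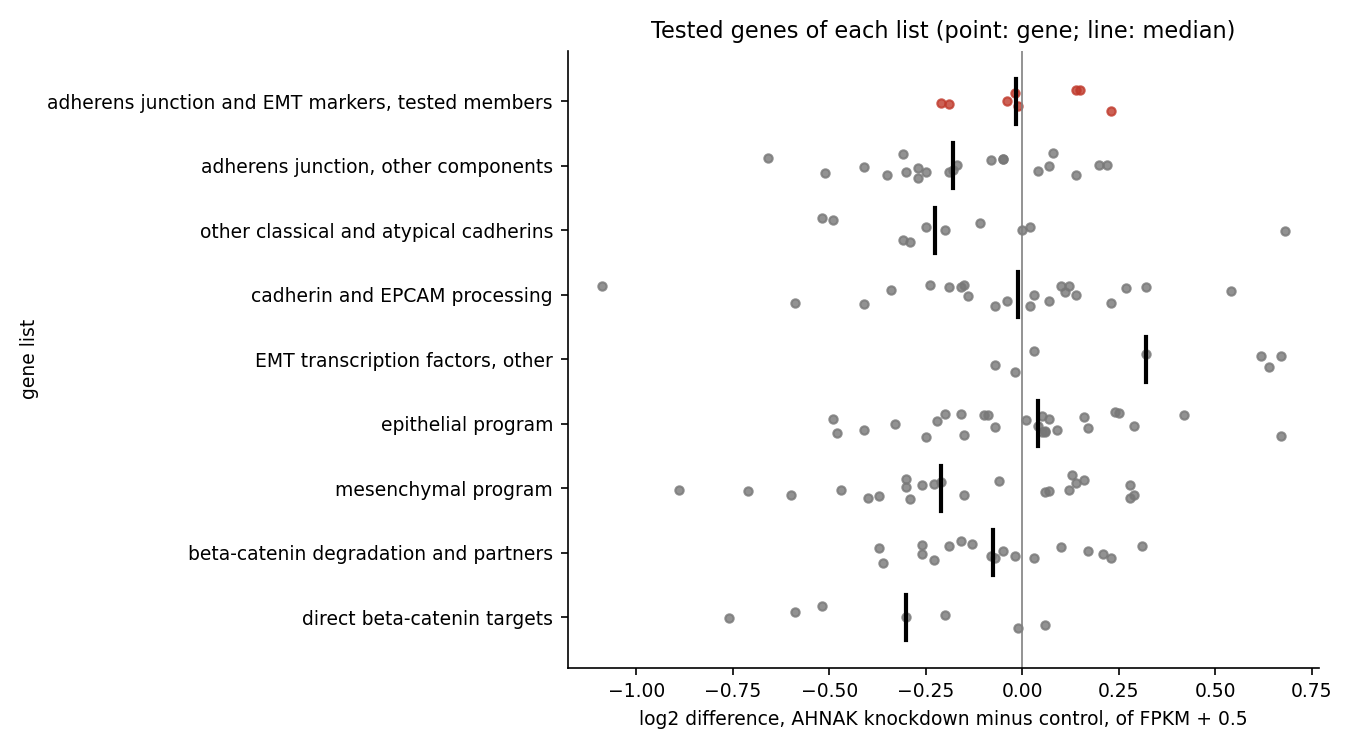
Log2 difference, AHNAK knockdown minus control, of FPKM + 0.5 for each tested gene of the 8 related lists (grey points) and for the 8 tested genes of the adherens junction and epithelial-mesenchymal set (red, top row), with a line at each median. The medians run from -0.30 for direct beta-catenin targets (SP5 included) to 0.32 for other transcription factors of the transition. The top row stays between -0.21 and 0.23.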

How the data were processed

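RNA sequencing of 5 HaCaT libraries was used, 3 knockdown and 2 control by their titles. The authors deposited 1 table of FPKM values with a row per gene symbol. Per the submitters' processing notes, HISAT2 2.0.1 and StringTie 2.0.6 were used, and GRCh38 and mm9 are named without a role. Annotation and strand setting remain unknown, not given in the sources used here. Depth is unknown, and no count test was possible.

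The FPKM values as deposited were turned into log2(FPKM + 0.5). Genes averaging 1 FPKM or more across all 5 libraries (12196 genes) were fitted with limma 3.58.1 in R 4.3.3 (lmFit, eBayes with intensity trend, no covariate, two-sided), with Benjamini-Hochberg adjustment over all of them. Ratios between genes were tested by exact permutation. The fitting code was first tested on simulated data. Sets A and B join libraries whose most frequent ratio of low values (under 0.3 FPKM) held for over 10% of those genes. Coordinates, GC content and lengths come from GENCODE release 29 (GRCh38), matched by symbol for 96.6% of tested genes, and promoters from RefSeq (GRCh38.p14).

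The genes named are the 10 members, AHNAK, and the 2 tested genes of smallest p in each related list. Marker genes and overlapping genes were named outside this rule, after their values were seen. So were SNAI1, TWIST1, ZEB2, TWIST2, TCF3, TCF4, KLF8, SOX4 and CDH4. The members and lists were chosen with earlier results of these data known. Results were recomputed with each library left out, other pseudocounts (0.1 and 1), filters and scalings, untrended or robust variances, array weights, a replicate block, a set term, and a loess correction (span 0.3) for GC content and length.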

Additional observations from a re-analysis of the deposited data

How the results depend on the processing

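No setting brought any of the 8 tested members past the threshold (lowest adjusted p 0.0803, SNAI2 with array weights), and of 135 refits of these genes 122 kept their sign. EPCAM (0.13 to 0.28), CTNNA1 (0.09 to 0.20), CTNND1 (-0.24 to -0.14) and SNAI2 (-0.39 to -0.11) kept it in every setting run, CTNND1 having no value at a mean of at least 5 FPKM. The sign turned for CDH3 with array weights (0.12), the replicate block (0.07) and the GC content and length correction (0.02), and for CTNNB1 with array weights (0.07) and the replicate block (0.03). With each library left out in turn, log2 differences ran from -0.03 to 0.32 for CDH1, -0.17 to 0.10 for CDH3, -0.07 to 0.06 for CTNNB1 and -0.19 to 0.14 for CDH2. The ratios ran from -0.11 to 0.05 (CTNNB1 over CDH1 and CDH3) and from -0.43 to 0.11 (VIM over CDH1). The cause of these changes was not tested.

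Genes past the threshold numbered 1 with a pseudocount of 1, without a trend and with robust eBayes, 1428 with array weights (knockdown replicate 2 weighted at 3.98, replicate 3 at 0.257), and 0 to 9 with a library left out, the 9 without control replicate 1. Genes with an unadjusted p under 0.05 numbered 862 at a mean of at least 5 FPKM (fewer genes tested), 828 with a term for the set, 4285 with array weights, 2188 corrected for GC content and length, and 564 to 2092 with a library left out. With equal FPKM sums, 512 of these were higher and 820 lower, against 759 and 668 as deposited. Array weights took AHNAK (-1.55) and genes named for the smallest p of their lists past the threshold, 12 in all. This stands beside 1428 of all 12196 tested genes. Apart from AHNAK these genes had been picked by their p in the same data, so the count supports nothing about them.

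The median of the tested members was 0.10 with array weights and -0.11 to 0.12 with a library left out. The median of other adherens junction components ran from -0.24 with equal sums to -0.08 with the replicate block or without knockdown replicate 3. List medians also moved for other cadherins with the replicate block (-0.01) and with a library left out (-0.28 to -0.01). They moved for processing genes with equal sums (-0.06), and for epithelial genes with a library left out (-0.05 to 0.01). They moved for other transcription factors with no filter (0.00), a mean of at least 5 FPKM (0.63), the block (0.53) and a library left out (0.15 to 0.53). They moved for mesenchymal genes with no filter or array weights (-0.10 each) and a library left out (-0.21 to -0.08), and for beta-catenin targets with no filter (-0.09) and a library left out (-0.63 to -0.19). Replicate numbers were not shown to pair libraries: deviations of same-numbered libraries correlated at -0.064 and -0.578, and with 2 controls the 2 control deviations mirror each other. The block gives the third knockdown library its own term, so its log2 differences are those without that library. Its p-values are not, and genes with an unadjusted limma p under 0.05 numbered 977 with the block and 1772 without that library.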
